A study of Mus musculus with 48 samples.

Results

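The Fc receptor genes described here are *Fcgr1*, *Fcgr2b*, *Fcgr3*, *Fcgr4*, *Fcer1g* and *Fcrls*, 6 of the 46983 genes counted. They were chosen by name, with earlier results of these data known. Fc receptors bind the constant part of antibodies and let myeloid cells sense targets coated with IgG. In the mouse, *Fcgr1* encodes the high-affinity activating IgG receptor, *Fcgr3* a low-affinity activating receptor and *Fcgr4* an activating receptor of intermediate affinity. All of them signal through the common gamma chain encoded by *Fcer1g*, which carries an immunoreceptor tyrosine-based activation motif (ITAM). *Fcgr2b* encodes the inhibitory IgG receptor, which carries an inhibitory motif (ITIM) and recruits phosphatases. *Fcrls* encodes an Fc receptor-like scavenger receptor used as a marker of mouse microglia. In the brain these genes are known mainly from microglia, border macrophages and infiltrating myeloid cells.

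Bulk RNA was measured in 48 libraries from 3-month-old C57Black/6 male mice. MCAO mice had a permanent middle cerebral artery occlusion, made by coagulating and cutting the artery under isoflurane, and sham mice had the same surgery without coagulation. The 11 groups were a control of intact cortical tissue (4 libraries) and, at 3 h, 12 h, 24 h, day 3 and day 7, a sham group (4 libraries each) and an MCAO group (5 libraries each, 4 at 24 h). The lesion of this model is a small cortical infarct, and the tissue taken held affected and non-affected parts together, so each value is an average over both. The sources differ on how much tissue that was, from the injured cortical region to almost the whole hemisphere on the lesion side. The study describes the bulk samples as several mice per condition, the series text counts 3 forebrain hemispheres per time, and the labels number at least 4 libraries per group. The p-values measure the spread between these libraries.

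Each library gave between 1522668 and 2826735 counts on genes (median 1935856), and levels are given as CPM after TMM scaling, the usual depth-scaled read count. One read was thus worth about the smallest nonzero CPM values below, and genes at a few CPM rested on a handful of reads. Neuron markers (*Snap25*, *Syt1*, *Rbfox3*, *Slc17a7* and *Gad1*) and cortex markers were detected in every group, with none of them at 0 throughout a group. A few MCAO libraries stood apart from the rest of their group. MCAO day 3 replicate A was low, and MCAO day 7 replicate C and MCAO 12 h replicate E were high in myeloid genes. The members' calls on day 7 are also given without MCAO day 7 replicate C. Fold changes of some members at 12 h are also given without MCAO 12 h replicate E. For the members, MCAO day 3 replicate A was left out in the ranges with 1 library left out. It was also left out in a fit together with MCAO day 7 replicate C. Calls required an absolute log2 fold change over 0.58 together with an adjusted p (Benjamini-Hochberg, over the 19970 genes tested) under 0.01 in edgeR's quasi-likelihood test.

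The 6 genes lie on 2 chromosomes (GRCm38). *Fcgr2b* (chr1:170958617-170976547, minus strand), *Fcgr4* (chr1:171018920-171029761, plus strand), *Fcgr3* (chr1:171051174-171064935, minus strand) and *Fcer1g* (chr1:171229572-171234365, minus strand) are neighbours on chromosome 1. *Fcrls* (chr3:87250758-87263738, minus strand) and *Fcgr1* (chr3:96282909-96293969, minus strand) lie apart from each other on chromosome 3. The annotation places the antisense gene *Gm38204* over *Fcgr2b*, and since the strand setting of the counting is not given in the sources used here, reads of the pair cannot be told apart. The library kit (QuantSeq) reads the 3′ end of transcripts. None of the 451 possible 50-base reads from the last 500 bases of each member's transcript was found in another gene's transcripts, so cross-counting among these related genes was not detectable by this measure.

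Promoters are printed for *Fcgr1*, *Fcgr3*, *Fcgr4* and *Fcrls* because they share a sequence that the selection of the genes did not use. RefSeq (GRCm38.p6) had promoter entries for 6 of 6 members, each from 250 bases before to 50 bases after the annotated start, and *Fcgr3* had a pair of overlapping entries of which 1 is shown. Of 7 motifs searched on both strands, the extended PU.1 core AGAGGAAG (reverse complement CTTCCTCT) was found in these 4 of 6 members and in 4.55% of all 32851 promoter entries. PU.1, encoded by *Spi1*, is the transcription factor that defines myeloid cells. The sequences are written 5′ to 3′ on the gene's strand, and capitals mark AGAGGAAG or CTTCCTCT, the GAS motif TTCNNNGAA in *Fcgr1* and the ISRE motif (GAAA, any 2 bases, GAAA) in *Fcgr4*.
*Fcgr1* (chr3:96293920-96294219, minus strand): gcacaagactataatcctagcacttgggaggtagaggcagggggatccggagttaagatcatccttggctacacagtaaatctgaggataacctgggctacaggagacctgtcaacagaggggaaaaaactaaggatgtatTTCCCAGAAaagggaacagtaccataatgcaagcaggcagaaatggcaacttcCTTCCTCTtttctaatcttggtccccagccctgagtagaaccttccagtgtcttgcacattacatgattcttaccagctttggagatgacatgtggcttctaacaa
*Fcgr3* (chr1:171059345-171059644, minus strand): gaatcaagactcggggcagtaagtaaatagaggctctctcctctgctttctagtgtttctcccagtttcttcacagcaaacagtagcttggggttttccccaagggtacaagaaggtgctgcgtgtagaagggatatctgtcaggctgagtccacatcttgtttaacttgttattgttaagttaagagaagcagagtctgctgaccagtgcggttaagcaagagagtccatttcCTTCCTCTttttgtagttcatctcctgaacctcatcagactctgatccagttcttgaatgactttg
*Fcgr4* (chr1:171018676-171018975, plus strand): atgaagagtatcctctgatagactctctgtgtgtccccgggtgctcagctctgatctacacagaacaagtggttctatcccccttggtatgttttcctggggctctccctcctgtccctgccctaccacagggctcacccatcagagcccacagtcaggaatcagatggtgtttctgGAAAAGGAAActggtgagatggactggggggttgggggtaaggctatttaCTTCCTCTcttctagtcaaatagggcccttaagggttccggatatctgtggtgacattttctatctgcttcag
*Fcrls* (chr3:87263475-87263774, minus strand): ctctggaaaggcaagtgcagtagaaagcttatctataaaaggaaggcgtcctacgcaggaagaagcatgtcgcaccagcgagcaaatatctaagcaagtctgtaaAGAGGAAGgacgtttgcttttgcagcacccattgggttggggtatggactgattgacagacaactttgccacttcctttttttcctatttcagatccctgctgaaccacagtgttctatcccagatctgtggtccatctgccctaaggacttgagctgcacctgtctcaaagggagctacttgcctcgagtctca

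The CTTCCTCT match began 56 bases before the annotated start of *Fcgr1*, 16 bases before that of *Fcgr3* and 23 bases before that of *Fcgr4*. In *Fcrls* the match was in the other orientation and began 145 bases before the start. The shorter PU.1 core GAGGAA (reverse complement TTCCTC), which overlaps the extended one, was in the same 4 members and in 28.3% of all entries. The GAS motif TTCNNNGAA was in *Fcgr1* and in 8.3% of entries. The ISRE motif, a letter pattern of interferon-stimulated genes, was in *Fcgr4* and in 3.44% of entries. A C/EBP-type pattern (TTNNGNAA) was in *Fcgr3* and *Fcgr4* and in 40.7% of entries, and in *Fcgr4* it overlapped the ISRE letters. The letters of a STAT6-type pattern (TTC, any 4 bases, GAA, in 6.95% of entries) and of AP-1 (TGANTCA, 7.81%) were in 0 of the 6 members. A match describes letters only, and says nothing on binding.

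In tissue without occlusion, the members ranged from nearly absent to well detected. Over the 24 control and sham libraries, *Fcrls* had a level of 23.4 ± 5.64 CPM (SD, n = 24), *Fcer1g* 16.2 ± 3.06 CPM and *Fcgr3* 7.95 ± 2.62 CPM, and all of them were counted in every library. The inhibitory *Fcgr2b* had 1.51 ± 0.86 CPM and was at 0 in 2 of the 24 libraries, and *Fcgr1* had 1.24 ± 1.16 CPM and was at 0 in 5. *Fcgr4* had 0.28 ± 0.56 CPM and was at 0 in 17 of the 24. Because the kit counts 1 region per transcript, these levels are not corrected for length and are not ranked between genes. The 20 sham libraries together did not differ detectably from the 4 controls. For the comparison of all shams with control, 0 of 6 members were called (0.02% of all genes were called in either direction), 0 had an unadjusted p under 0.05, and DESeq2 and limma also called 0.

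**Figure D1:**
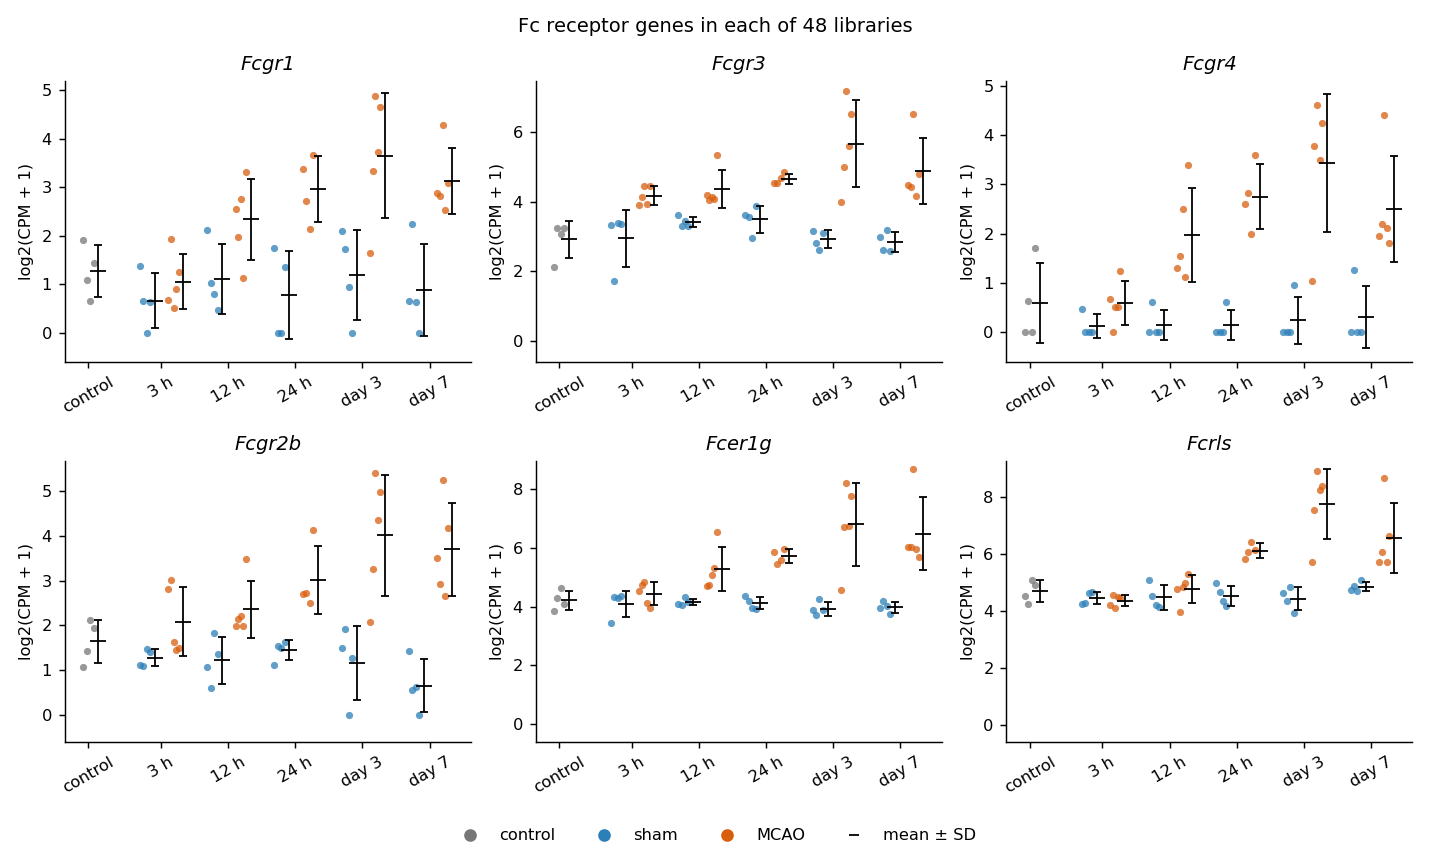
Levels of the 6 genes in each of the 48 libraries, as log2(CPM + 1), by group and time. Points are libraries, and black bars give the mean and SD of the log2 values in each group. The members were highest on day 3 after MCAO, with a wide spread between libraries on day 3 and day 7. Every MCAO library lay above all 24 control and sham libraries for *Fcgr3*.

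All 6 members rose after MCAO, with calls on day 3 and day 7. Each gene reached its highest group mean on day 3, its next highest on day 7 and the third highest at 24 h. By group median, day 7 was below 24 h for *Fcgr1* (6.35 against 7.48 CPM), *Fcgr3* (21.3 against 23.5), *Fcgr4* (3.36 against 5.59) and *Fcrls* (65.7 against 67.3). For *Fcgr2b* (10.4 against 5.57 CPM) and *Fcer1g* (63.6 against 52.0) the median on day 7 was above. With spike-in scaling the mean of *Fcgr4* was also lower on day 7 (5.99 CPM) than at 24 h (6.43 CPM). In MCAO against the sham of the same time, 0 of 6 members were called higher at 3 h, 12 h and 24 h, 6 of 6 on day 3 and 5 of 6 on day 7. Of all genes, 0.0901%, 0.346%, 0.0801%, 3.76% and 2.07% were called higher at these times, so the share of members called was above the share of all genes on both days. The uncalled member on day 7 was *Fcgr1*. At the early times the members with an unadjusted p under 0.05 numbered 1 at 3 h, 5 at 12 h and 6 at 24 h, and DESeq2 and limma called 0 at each of these times. Over all genes the calls on day 3 were 750 higher and 52 lower, and 463 higher and 131 lower with scaling to the spike-ins, and on day 7 they were 413 higher and 285 lower, against 403 and 86.

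**Figure D2:**
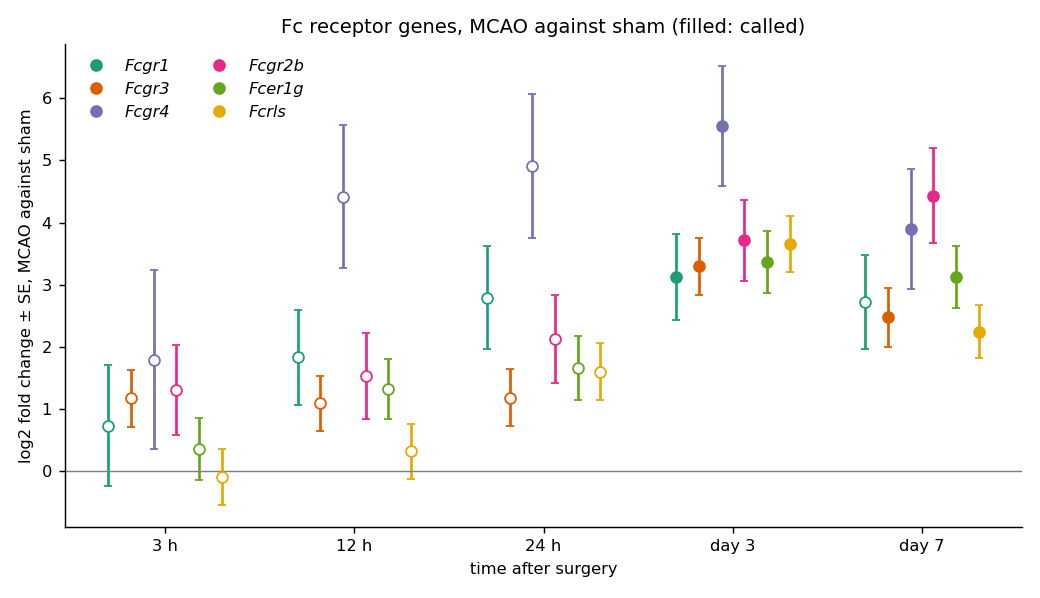
Log2 fold change of MCAO against the sham of the same time for each member, with its standard error from edgeR, by time after surgery. Filled points were called, which holds for 6 members on day 3 and 5 on day 7, and the values for *Fcgr4* rest on 1 to 3 sham reads in all at each time.

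The ranges of single libraries separated earlier than the calls. All MCAO libraries lay above all shams of their time for 1 of 6 members at 3 h (*Fcgr3*), 4 at 12 h (*Fcgr3*, *Fcgr4*, *Fcgr2b* and *Fcer1g*), 6 at 24 h, 5 on day 3 and 6 on day 7. The shares of all genes with such a separation were 2.26%, 2.03%, 3.76%, 4.33% and 5.38%. The member that overlapped on day 3 was *Fcgr1*, through MCAO day 3 replicate A.

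Of the activating receptors, *Fcgr3* was the member already higher in all MCAO libraries at 3 h. It had 13.9, 16.5, 21.0, 14.2 and 21.0 CPM in the 5 MCAO libraries at 3 h, against 9.09, 2.30, 9.41 and 9.27 CPM in the shams. The groups did not overlap, and the log2 fold change was 1.18 ± 0.46 (SE), with an adjusted p of 0.43 in edgeR. At 12 h the MCAO libraries ranged from 15.5 to 39.3 CPM and the shams from 8.86 to 11.2 CPM, and at 24 h they ranged from 22.1 to 28.1 CPM against 6.71 to 13.6 CPM. The log2 fold changes at these times, 1.09 ± 0.44 and 1.18 ± 0.46, were close to the one at 3 h and were not called (adjusted p of 0.22 and 0.39 in edgeR). In the order of group means, the 5 MCAO groups were thus above all others for *Fcgr3*. The range of the lowest of them, MCAO 3 h, did not overlap that of the next, sham 24 h. With spike-in scaling the ranges of MCAO 3 h and sham 24 h overlapped.

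On day 3, *Fcgr3* had 14.9, 31.2, 145, 47.9 and 91.2 CPM in the MCAO libraries and 7.98, 6.0, 5.14 and 7.50 CPM in the shams. Every MCAO library was higher than every sham, although the lowest and the highest MCAO library differed more than the lowest did from the shams. The log2 fold change was 3.29 ± 0.45 (adjusted p of 1.949e-06 in edgeR). On day 7 the MCAO libraries had 21.3, 20.4, 90.4, 16.8 and 26.9 CPM and the shams 6.86, 5.13, 8.18 and 5.02 CPM, with a log2 fold change of 2.47 ± 0.47 (adjusted p of 0.0005012). Replicate C was far above the other day 7 libraries. Without it the log2 fold change was 1.76 and the adjusted p in edgeR was 0.01026, which is not called.

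*Fcgr4* went from a few reads to a clear signal. The shams held 1, 1, 1, 2 and 3 *Fcgr4* reads in all at 3 h, 12 h, 24 h, day 3 and day 7, while the MCAO groups held 6, 35, 50, 139 and 57. The pooled ratios, scaled by gene counts, were 4.63 (95% exact counting interval 0.562 to 213), 31.3 (5.27 to 1272), 40.8 (7.00 to 1644), 63.7 (17.3 to 531) and 17.9 (5.81 to 89.1). These intervals cover counting error only, and at 3 h the interval included no change. Single MCAO libraries had 1.48, 1.94, 4.69, 1.18 and 9.53 CPM at 12 h, 5.10, 6.08, 2.97 and 11 CPM at 24 h, and 1.07, 12.7, 23.5, 10.3 and 18.1 CPM on day 3. The highest sham at these times had 0.52, 0.52 and 0.94 CPM, so that the groups did not overlap. On day 7 the MCAO libraries had 2.88, 3.56, 20.2, 3.36 and 2.5 CPM and the shams 0, 1.4, 0 and 0 CPM.

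The differences of *Fcgr4* were called on day 3 (adjusted p of 8.2e-05) and day 7 (adjusted p of 0.006256) in edgeR, and not at 12 h (0.03479) or 24 h (0.04639). The day 7 call was lost without MCAO day 7 replicate C (adjusted p of 0.07641 in edgeR). It was also lost without sham day 7 replicate A (0.02392), C (0.02089) or D (0.0411). The 4 controls held 0, 0.562, 0 and 2.28 CPM, so the group with the most *Fcgr4* reads outside MCAO was the intact control, through 1 library with 4 reads.

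*Fcgr1*, the high-affinity receptor, was called against sham on day 3 and not on day 7. On day 3 it had 2.14, 9.04, 28.5, 12.2 and 24.2 CPM after MCAO and 3.26, 2.31, 0.934 and 0 CPM in the shams. Replicate A of the MCAO group lay within the shams and the other MCAO libraries lay above them. The log2 fold change was 3.13 ± 0.69 (adjusted p of 0.001735 in edgeR). The call was lost without MCAO day 3 replicate C (adjusted p of 0.01153), sham day 3 replicate C (0.01165) or sham day 3 replicate D (0.01366). On day 7 the values were 6.35, 6.11, 18.4, 4.80 and 7.51 CPM against 0.572, 3.73, 0.545 and 0 CPM. The groups did not overlap, but the log2 fold change of 2.72 ± 0.75 had an adjusted p of 0.01545 in edgeR. *Fcgr1* passed on day 7 in DESeq2 (adjusted p of 0.004374), in limma (0.007702), in edgeR without a filter (0.005735) and without sham day 7 replicate B (log2 fold change 4.40, adjusted p of 0.004795). At 24 h the MCAO libraries had 9.35, 5.61, 3.39 and 11.6 CPM against 2.37, 0, 0 and 1.57 CPM (log2 fold change 2.79 ± 0.83, adjusted p of 0.18). At 3 h the MCAO values, 0.419 to 2.83 CPM, overlapped the shams, 0 to 1.58 CPM.

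*Fcgr2b*, the inhibitory receptor, rose along with the activating ones. On day 3 it had 3.20, 8.59, 40.9, 19.5 and 30.4 CPM after MCAO and 1.81, 2.77, 0 and 1.41 CPM in the shams. The groups did not overlap, and the log2 fold change was 3.71 ± 0.64 (adjusted p of 7.842e-05 in edgeR). On day 7 it had 10.4, 6.62, 36.9, 5.28 and 16.9 CPM against 1.72, 0.467, 0.545 and 0 CPM, with a log2 fold change of 4.43 ± 0.76 (adjusted p of 0.0001502). The sham value on day 7 was the lowest group mean of *Fcgr2b* (0.682 CPM, 5 reads in all), so that the fold change against the 4 controls on day 7 was smaller, at 2.71 ± 0.64 (adjusted p of 0.007506). Without MCAO day 7 replicate C, *Fcgr2b* was still called against the sham (log2 fold change 3.79, adjusted p of 0.001823). At 24 h the values were 5.52, 5.61, 4.66 and 16.5 CPM against 1.18, 1.90, 1.83 and 2.1 CPM, and at 12 h they ranged from 2.94 to 10.1 CPM against 0.521 to 2.59 CPM. At 3 h, replicates A and B of the MCAO group (6.03 and 7.08 CPM) lay apart from the other 3 MCAO libraries (1.72 to 2.1 CPM), which were near the shams (1.15 to 1.79 CPM).

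*Fcer1g*, whose gamma chain the activating receptors need, was among the more abundant of the 6 in reads. On day 3 it had 22.4, 103, 295, 105 and 217 CPM after MCAO and 13.8, 12.0, 18.2 and 13.6 CPM in the shams. Replicate A was the one MCAO library near the shams, and the log2 fold change was 3.36 ± 0.50 (adjusted p of 7.157e-06 in edgeR). On day 7 it had 64.6, 63.6, 406, 61.4 and 50.1 CPM against 14.3, 17.3, 15.3 and 12.3 CPM, with a log2 fold change of 3.12 ± 0.50 (adjusted p of 6.049e-05). The 4 libraries other than replicate C lay close together, and without replicate C the log2 fold change was 2.02 and *Fcer1g* was still called (adjusted p of 0.001578). At 24 h the values were 56.9, 42.1, 47.0 and 61.1 CPM against 19.5, 17.1, 14.6 and 14.2 CPM, and at 12 h they ranged from 25.2 to 91.7 CPM against 15.6 to 18.8 CPM. The early differences did not pass the threshold (log2 fold changes of 1.32 ± 0.48 at 12 h and 1.66 ± 0.51 at 24 h, adjusted p of 0.17 and 0.20 in edgeR). At 3 h the MCAO libraries (14.6 to 27.7 CPM) overlapped the shams (9.88 to 19.6 CPM).

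*Fcrls*, the microglial receptor-like gene, was higher in all MCAO libraries from 24 h. At 3 h it had 15.9 to 22.7 CPM after MCAO and 17.8 to 24.0 CPM in the shams, and at 12 h 14.6 to 38.1 CPM against 16.4 to 32.9 CPM, with log2 fold changes of -0.09 ± 0.45 and 0.32 ± 0.44 that were not called. At 24 h the values were 55.2, 65.0, 84.7 and 69.7 CPM against 30.2, 24.0, 19.5 and 16.8 CPM. The groups did not overlap, and the log2 fold change of 1.60 ± 0.45 had an adjusted p of 0.14 in edgeR. On day 3 it had 51.2, 183, 477, 298 and 329 CPM against 23.6, 19.4, 27.6 and 14.1 CPM (log2 fold change 3.65 ± 0.45, adjusted p of 1.502e-07). On day 7 it had 51.9, 65.7, 399, 50.9 and 97.1 CPM against 25.7, 28.0, 25.1 and 32.8 CPM (2.24 ± 0.43, adjusted p of 0.0005377). Without MCAO day 7 replicate C the log2 fold change was 1.24 and the call was lost (adjusted p of 0.02084). In the order of group means, the range of MCAO 24 h did not overlap that of the next group, sham day 7. For the other pairs of neighbours in the order of each member's group means the ranges overlapped, apart from the pair given for *Fcgr3*.

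Measured against the intact control, 6 of 6 members were called higher on day 3 (2.81% of all genes) and 4 of 6 on day 7 (1.09% of all genes), namely *Fcgr3*, *Fcgr2b*, *Fcer1g* and *Fcrls*. The 5 comparisons with control share the same 4 control libraries. The log2 fold changes on day 3 ran from 3.05 ± 0.49 for *Fcer1g* to 4.11 ± 0.86 for *Fcgr4*. At 3 h, 12 h and 24 h, 0 of 6 members were called (0.115%, 0.386% and 0.12% of all genes were called higher), with 1, 4 and 6 members at an unadjusted p under 0.05 and 0 calls by DESeq2 and limma (DESeq2 gave no adjusted p for *Fcgr4* at 24 h). With 1 library left out, 4 to 6 members were called on day 3 and 0 to 4 on day 7. On day 7 the count was 0 without MCAO day 7 replicate C and 2 without control replicate A. The day 7 call of *Fcgr2b* was lost without MCAO day 7 replicate C or E or any 1 of the 4 controls. It was also lost with spike-in scaling (adjusted p of 0.01206 in edgeR), with the replicate letter as a block (0.0165 in edgeR) and in limma (0.01847). The 561 higher and 56 lower calls over all genes on day 3 became 349 and 345 with scaling to the spike-ins, and the 218 and 82 on day 7 became 150 and 90.

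The change of the MCAO effect from one time to the next was tested as an interaction. From 3 h to 12 h, 12 h to 24 h, 24 h to day 3 and day 3 to day 7, 0 of 6 members were called in each (0.01%, 0.01%, 0.01% and 0% of all genes in either direction). DESeq2 and limma also called 0, but DESeq2 gave no adjusted p for *Fcgr1* and *Fcgr4* from 3 h to 12 h. The members with an unadjusted p under 0.05 numbered 0, 1, 3 and 1. From 24 h to day 3 the effect was larger by 2.11 ± 0.65 on the log2 scale for *Fcgr3*, 2.05 ± 0.62 for *Fcrls* and 1.71 ± 0.70 for *Fcer1g* (adjusted p of 0.35, 0.33 and 0.48 in edgeR), and by 0.34 ± 1.27 for *Fcgr1*. From day 3 to day 7 the effect on *Fcrls* changed by -1.41 ± 0.58 (adjusted p of 0.22). Without MCAO day 3 replicate A and MCAO day 7 replicate C, a choice made after seeing the data, 3 members were called from 24 h to day 3. They were *Fcrls* (2.32), *Fcgr3* (2.36) and *Fcer1g* (1.98). *Fcrls* alone was called from day 3 to day 7 (-2.67, adjusted p of 1.063e-05), and it was also the 1 member called in that change when MCAO day 7 replicate C alone was left out.

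Ratios within a library show how the members moved relative to each other. They were taken as log2 ratios after adding 1 CPM to each gene, for *Fcgr1*, *Fcgr3* and *Fcgr4* over the inhibitory *Fcgr2b* and for *Fcrls* over *Fcgr3*, and MCAO was compared with sham at each time by two-sided exact permutation tests. Of 20 tests, 0 passed an adjusted p of 0.05, and 3 had an unadjusted p under 0.05. The smallest p these group sizes allow is 0.0159, or 0.0286 at 24 h.

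The ratio of *Fcrls* to *Fcgr3* at 3 h was 0.31, 0.43, -0.38, 0.54 and 0 on the log2 scale in the MCAO libraries and 0.90, 2.56, 1.25 and 1.28 in the shams. The groups did not overlap, with a difference of -1.31 (exact permutation p of 0.0159, adjusted p of 0.159). The ratio of *Fcgr3* to *Fcgr2b* on day 7 was 0.97, 1.49, 1.27, 1.5 and 0.64 in the MCAO libraries and 1.53, 2.06, 2.57 and 2.59 in the shams, a difference of -1.01 with the same p-values. The ratio of *Fcgr4* to *Fcgr2b* at 24 h was higher after MCAO by 1.03 (exact permutation p of 0.0286, adjusted p of 0.19). On day 3, when all 6 genes were called, the differences in the 4 ratios ran from -0.39 for *Fcgr1* over *Fcgr2b* to 0.57 for *Fcrls* over *Fcgr3*, with exact permutation p-values from 0.159 to 0.81. Since *Fcgr1*, *Fcgr2b* and *Fcgr4* were near 0 in the shams, the added 1 CPM weighs on the sham ratios.

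**Figure D3:**
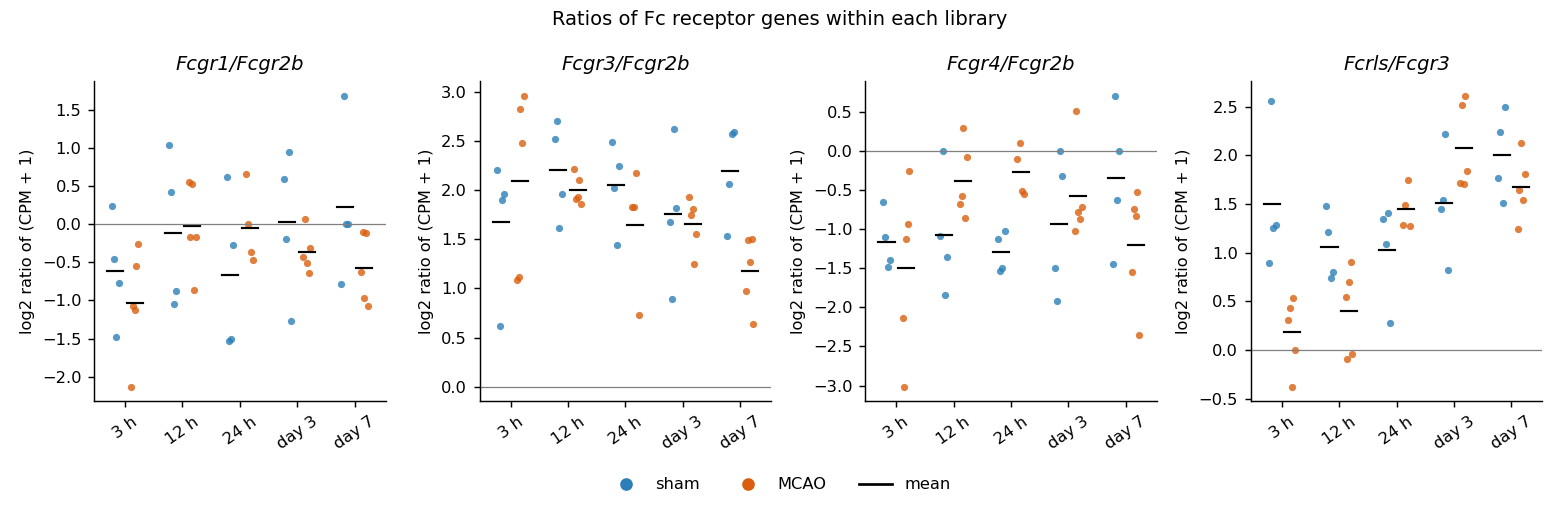
Log2 ratios of (CPM + 1) within each library for 4 pairs of members, by time, with sham in blue and MCAO in orange. Points are libraries and bars are group means, and none of the 20 comparisons passed after adjustment.

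The members moved together from library to library after MCAO. Over the 24 MCAO libraries, with group means removed, the 15 pairs of members had Pearson correlations of log2(CPM + 1) from 0.73 to 0.92 (median 0.82). Over the 24 control and sham libraries, where group means were not removed, they ranged from -0.28 to 0.35 (median 0.05). There *Fcgr1*, *Fcgr4* and *Fcgr2b* had at most 9, 4 and 7 reads in a library. Among the members counted in every library, r was 0.073 for *Fcgr3* and *Fcer1g*, -0.024 for *Fcgr3* and *Fcrls* and 0.29 for *Fcer1g* and *Fcrls*. Over all 48 libraries, also without removing group means, the 15 pairs ranged from 0.79 to 0.90. These are descriptions across libraries that share depth, scaling and time.

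Each member's most similar genes over the 48 libraries were taken among 11716 genes with a mean of at least 5 CPM, by Pearson's r of log2(CPM + 1). For *Fcer1g* they were *Cd68* (r = 0.95), a lysosomal protein of phagocytes, *Spp1* (0.95), which encodes osteopontin, and *Lyz2* (0.95), a myeloid lysozyme. For *Fcgr4* they were *Fcer1g* (0.90), *Ms4a6c* (0.90) and *S100a6* (0.90), and for *Fcgr2b* *Spp1* (0.91), *Fcer1g* (0.90) and *Ly86* (0.89). For *Fcgr3* they were the chemokine gene *Cxcl16* (0.91), *Cd93* (0.91) and the adaptor gene *Fyb* (0.90). For *Fcgr1* they were *S100a6*, *S100a4* and *Rab32* (0.86 each). For *Fcrls* they were *C1qb* (0.93), a chain of complement C1q, *Gnai2* (0.93) and *Lgals1* (0.93).

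The libraries that were high or low in Fc receptor genes were also high or low in general myeloid markers. The summed level of 7 pan-myeloid markers (*Spi1*, *Cd68*, *Aif1*, *Ptprc*, *Laptm5*, *Itgam* and *Irf8*) on day 3 was 144, 365, 763, 440 and 677 CPM in MCAO replicates A to E, against 67.8 to 80.6 CPM in the shams. On day 7 it was 224, 229, 1073, 214 and 292 CPM, against 65.4 to 100 CPM. Replicate A on day 3 and replicate C on day 7 thus stood at the same ends for these markers as for the members. Neuron markers ran the other way. Their summed level was 6477 CPM in MCAO day 3 replicate A and 4192 to 5731 CPM in the other day 3 MCAO libraries, and 3621 CPM in MCAO day 7 replicate C against 5231 to 6231 CPM in the other 4. In bulk tissue, fewer cells of a type and less RNA per cell cannot be told apart, and the part of cell number in the members' changes was not tested.

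**Figure D4:**
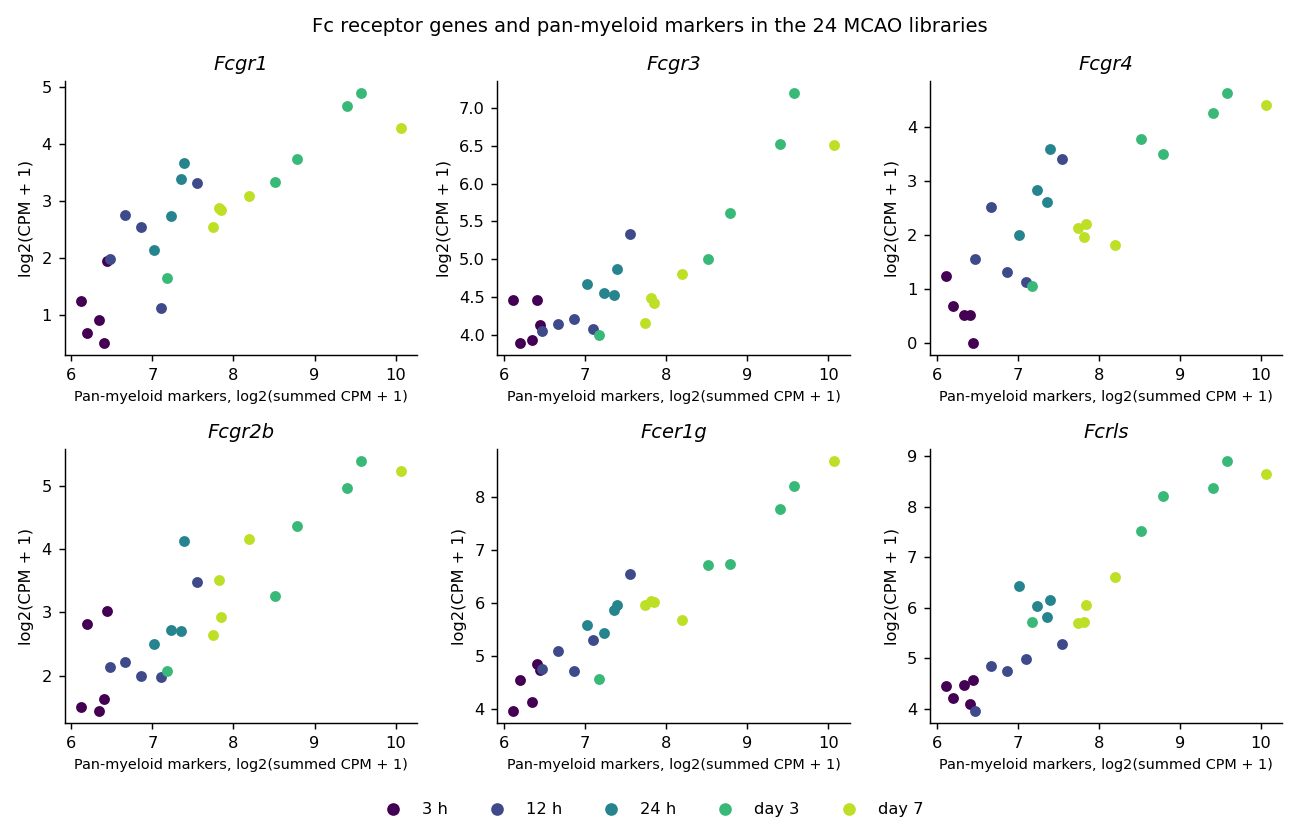
Level of each member against the summed level of 7 pan-myeloid markers in the 24 MCAO libraries, both as log2(CPM + 1), with the time after surgery in colour. The libraries with the highest pan-myeloid levels, MCAO day 7 replicate C (1073 CPM) and MCAO day 3 replicates C and E (763 and 677 CPM), also had the highest levels of the members.

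Marker lists of single cell types gave the surroundings of these changes. Of 7 pan-myeloid genes, 7 were called higher on day 3 and 5 on day 7, with median log2 fold changes of 2.63 and 2.23 (medians over all genes 0.012 and 0.056). Of 8 homeostatic microglia genes, 4 were called higher on day 3 (among them *Csf1r*, *Sall1* and *Cx3cr1*) and 3 on day 7 (among them *Gpr34* and *Cx3cr1*), with medians of 1.34 and 0.98, and *P2ry12* was called lower at 12 h (-1.78 ± 0.39, adjusted p of 0.009302 in edgeR, beside 0.0651% of all genes called lower at that time). Without MCAO day 7 replicate C or sham day 7 replicate C, 1 of the homeostatic genes was called on day 7. The 6 border macrophage genes had 2 calls on day 3 (*Pf4* and *F13a1*) and 1 on day 7 (*Ms4a7*), with 1 to 3 and 0 to 1 calls when 1 library was left out, and 0 on day 7 without MCAO day 7 replicate C, sham day 7 replicate A or sham day 7 replicate D. Of 5 monocyte genes, 2 were called on each day, and on day 7 0 were called without MCAO day 7 replicate C, sham day 7 replicate B or sham day 7 replicate D. Neutrophil markers were called for 2 of 7 at 12 h and 2 of 7 on day 3 (*S100a8* and *S100a9* at both times) and for 0 on day 7. The day 3 count was 0 without MCAO day 3 replicate C and 4 without MCAO day 3 replicate A.

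At each time from 12 h on, the MCAO library highest in summed neutrophil markers was also highest in the summed IgG receptors. The IgG receptors summed were *Fcgr1*, *Fcgr2b*, *Fcgr3* and *Fcgr4*. Other libraries did not keep the same order. MCAO 12 h replicate D had 176 CPM of neutrophil markers and the lowest receptor sum of its group (21.2 CPM). At 3 h, MCAO replicate D was highest in neutrophil markers (63.3 CPM) and replicate C in *Fcgr3* (20.97 CPM). The summed level of neutrophil markers was 1712 CPM in MCAO 12 h replicate E and 12.2 to 176 CPM in the other 4. Replicate E was also the library with the highest level of all 6 members at 12 h. At 24 h the summed level of neutrophil markers after MCAO was 59.3 CPM in replicate D and 31.4 to 52.95 CPM in the others. On day 3 it was 622 CPM in replicate C and 4.80 to 73.1 CPM in the others. On day 7 it was 5.64 to 20.2 CPM after MCAO, with the highest value in replicate C. Without MCAO 12 h replicate E the log2 fold changes at 12 h were 0.75 for *Fcgr3*, 3.76 for *Fcgr4*, 1.06 for *Fcgr2b* and 0.84 for *Fcer1g*. The part of neutrophils in the members' levels was not tested.

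Markers of lymphocytes were near 0. B and plasma cell markers summed to at most 2.97 CPM in any MCAO library, and *Cd79a* and *Ms4a1* were at 0 in every library. T and NK cell markers summed to at most 3.50 CPM, in an MCAO day 3 library, and *Cd3g* and *Ncr1* had 1 read each over all 48 libraries. Mast cell markers had a median summed level of 1.07 CPM on day 3 and 2.40 CPM on day 7 after MCAO but reached 55.4 CPM in 1 library at 12 h and 29.5 CPM in 1 on day 3, while *Cpa3* had 6 reads, *Cma1* 1 read and *Mcpt4* 0 reads in all 48 libraries. Of these lists, 0 of the tested mast cell, dendritic cell, B cell or T cell markers were called in MCAO against sham at any time. Among neuron markers 1 of 5 was called lower on day 3 (*Snap25*) and 1 on day 7 (*Rbfox3*), and among cortex markers 2 of 5 were called lower on day 7 (among them *Rorb*). Of all genes, 0.26% and 1.43% were called lower on these days. Striatum markers had 0 calls, with a summed level that ranged from 102 to 2873 CPM over the MCAO libraries.

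Of the other Fc receptors and Fc receptor-like genes, 9 of 13 had 10 counts or fewer in all libraries and were not tested. *Fcer1a*, the alpha chain of the IgE receptor that also uses the gamma chain, had 0 reads, and *Ms4a2*, its beta chain, had 4. Of the 4 tested genes, 1 was called. *Fcrl1*, a receptor-like gene known from B cells, had 30 reads in the MCAO day 3 libraries (0 to 6.35 CPM) and 0 in the shams, at least 9.16-fold higher against a floor of 3 reads over the group (adjusted p of 0.008209 in edgeR). The call was lost in DESeq2, with scaling to the spike-ins, with the replicate letter as a block, with only the groups compared and without any 1 library of either group other than MCAO day 3 replicate A. The neonatal receptor *Fcgrt*, which recycles IgG, had 31.3 ± 12.1 CPM (SD, n = 5) after MCAO on day 3 and 16.9 ± 4.90 CPM (n = 4) in the shams (log2 fold change 0.89 ± 0.30, adjusted p of 0.054 in edgeR). *Trim21*, a cytosolic antibody receptor, had group means of 1.05 to 1.54 CPM on days 3 and 7, and *Fcmr*, the IgM receptor, at most 0.516 CPM. The list's median log2 fold change was 1.32 on day 3 and 0.60 on day 7 (0.71 with genes at 0 set at their bound).

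Most tested kinases and effectors downstream of ITAMs rose on day 3. Of 18 tested, 11 were called higher on day 3 and 3 on day 7, and 0 at 3 h, 12 h and 24 h, with median log2 fold changes of 2.94 and 1.98 on the later days. On day 3, *Rac2*, a small GTPase of blood cells, had 35.5 ± 24.6 CPM (SD, n = 5) against 1.98 ± 1.16 CPM in the shams (n = 4), a log2 fold change of 4.09 ± 0.62. *Vav1*, its exchange factor, had 16.3 ± 10.2 CPM against 1.1 ± 0.98 CPM (3.74 ± 0.74), and *Lcp2*, the adaptor SLP-76, had 15.2 ± 8.77 CPM against 1.08 ± 0.79 CPM (3.73 ± 0.72). The Src-family kinase *Fgr* had 7.44 ± 7.62 CPM against 0.23 ± 0.27 CPM (4.73 ± 1.13, adjusted p of 0.004236 in edgeR) and was at 0 in 1 MCAO library. The other called genes on day 3 included *Syk*, *Lyn*, *Btk*, *Plcg2*, *Prkcd* and *Lat2*. On day 7 they were *Rac2*, *Plcg2* and *Lyn*, and 1 of the list was called without MCAO day 7 replicate C or sham day 7 replicate B. On day 3 the count fell to 7 without MCAO replicate C, sham replicate B or sham replicate D.

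Inhibitory phosphatases and docking proteins, which act downstream of *Fcgr2b* and other ITIM receptors, also had calls in the same direction. Of 7 tested, 4 were called higher on day 3 and 1 on day 7, with median log2 fold changes of 1.48 and 0.42. *Ptpn6*, the phosphatase SHP-1, had 43.5 ± 30.8 CPM against 2.99 ± 2.00 CPM on day 3 (log2 fold change 3.79 ± 0.59), and it was the gene called on day 7. *Inpp5d*, the lipid phosphatase SHIP1, had 26.3 ± 12.3 CPM against 6.33 ± 1.91 CPM (2.06 ± 0.45). Its paralog *Inppl1* had 83.0 ± 29.1 CPM against 37.0 ± 11.7 CPM (1.16 ± 0.25), and the docking protein gene *Dok1* had 9.39 ± 6.77 CPM against 1.46 ± 1.43 CPM (2.66 ± 0.61). Without MCAO day 7 replicate C or sham day 7 replicate A, B or D, 0 of the list were called on day 7, and without sham day 3 replicate A 2 were called on day 3.

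A list of other signalling adaptors and activating receptors had 5 of 6 tested genes called on day 3 and 3 on day 7. The counts were 3 on day 3 without sham replicate B or C and 2 on day 7 without MCAO replicate C. *Tyrobp*, the adaptor DAP12, had 123 ± 67.9 CPM against 10.1 ± 1.70 CPM on day 3 (log2 fold change 3.59 ± 0.51), and its partner *Trem2* had 48 ± 21.3 CPM against 6.78 ± 2.89 CPM (2.81 ± 0.49). *Hcst*, the adaptor DAP10, had 7.40 ± 4.84 CPM against 0.67 ± 0.49 CPM (3.38 ± 0.79). *Clec7a*, the beta-glucan receptor Dectin-1, had 213 reads in the MCAO day 7 libraries and 0 in the shams, at least 66.7-fold higher against a floor of 3 reads, and 121 reads against 0 on day 3, at least 37.0-fold higher. Its level on day 7 was 24.9 ± 36.1 CPM (SD, n = 5), from 5.28 to 89.2 CPM, so the pooled reads weigh the highest library most. The list's median log2 fold change was 3.48 on day 3 and 2.62 on day 7, or 3.09 and 2.52 with genes at 0 set at their bound.

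Among the other ITIM receptors, 2 of 7 tested genes were called on day 3, 1 on day 7 and 1 at 12 h. *Cd22*, a sialic-acid-binding receptor known from B cells, had 40 reads on day 3 and 29 on day 7 after MCAO and 0 in the shams, at least 12.2-fold and 9.09-fold higher. The summed B and plasma cell markers were 0 to 2.20 CPM after MCAO and 0 to 0.923 CPM in the shams on day 3, and 0 to 2.97 CPM against 0 to 1.4 CPM on day 7, with *Cd79a* and *Ms4a1* at 0, and their part in the *Cd22* reads was not tested. *Cd300lf*, an inhibitory receptor of myeloid cells, had 119 reads after MCAO at 12 h (0.371 to 45.3 CPM) and 0 in the shams, at least 35.5-fold higher. The call at 12 h was lost without MCAO 12 h replicate C or E or any 1 of the 4 shams. The list had 0 calls on day 7 without MCAO replicate C or any 1 of the shams, and 0 on day 3 without MCAO replicate E or any 1 of the shams. The list's median log2 fold change was 2.26 on day 3 and 2.56 on day 7.

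Transcripts of the ligands changed less clearly. Of 14 immunoglobulin and pentraxin genes, 6 were not tested for low counts and 0 of the 8 tested were called in MCAO against sham at any time by edgeR. In limma 1 was called at 12 h. *Ighm* had the most reads, with 33.4 ± 13.2 CPM after MCAO on day 3 against 26.6 ± 16.4 CPM in the shams. *Ighg2c* had 1.17 ± 1.13 CPM (SD, n = 5) after MCAO on day 7 and 6.48 ± 4.45 CPM (n = 4) in the shams (log2 fold change -2.39 ± 0.70, adjusted p of 0.021 in edgeR). The pentraxin gene *Ptx3*, whose product binds Fc receptors, had a log2 fold change of 4.68 ± 1.03 at 12 h (adjusted p of 0.013). The list's median log2 fold change was 0.63 on day 3 and 0.96 on day 7, or 0.33 and 0.60 with genes at 0 set at their bound. *Crp* and *Apcs*, the short pentraxins, had 0 reads. RNA in the tissue says nothing on antibody protein that enters from blood.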

How the data were processed

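Single-end QuantSeq reads had been trimmed (TrimmomaticSE), depleted of rRNA and mtDNA sequences (SortMeRNA) and mapped by STAR 2.5.2b to a genome of GRCm38 plus ERCC spike-ins. The authors deposited raw counts per gene, made by htseq-count (union mode, Gencode vM8 annotation). Per the labels and the study's methods, the authors also deposited a log2-scale matrix from DESeq2's variance-stabilizing transformation, used here only as an alternative. Reads without a feature (median 23.5% of alignments), ambiguous (0.400%) and not unique (33.5%) stayed out, as did the spike-ins. Symbols came from Gencode vM21 and matched 46488 of 46983 identifiers.

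All 48 libraries entered 1 edgeR 4.0.16 fit in R 4.3.3 (TMM, quasi-likelihood, 11 groups, 15 comparisons) of the 19970 genes with more than 10 counts. The biological coefficient of variation was 24.9%, and libraries of 1522668 to 2826735 gene counts leave members at 1 CPM with a few reads each. The script was tested on simulated data. Ratios were compared by exact permutation tests (scipy 1.17.1, 20 tests, Benjamini-Hochberg) on CPM, and floors of 3 reads and 95% intervals cover counting error only. The members and lists were chosen with earlier results of these data known. The genes named were the 6 members, up to 4 called genes per pathway list and direction with the largest fold, and the 3 genes most like each member, plus those of lists counted in the text. Genes outside this rule were chosen after their values were seen. Alternatives were DESeq2's size factors, DESeq2 1.42.0, filterByExpr, no filter, only the groups compared, spike-in scaling, limma 3.58.1 on the deposited log2 matrix, the replicate letter as a block, other pseudocounts for the ratios and each library left out. Same-lettered libraries did not pair. No animal information links them. Some genes of the lists are not reported here by name.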

Additional observations from a re-analysis of the deposited data

Results flagged for a closer look

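In 17 of 66 groups of libraries tested, the highest or lowest library of a member stood apart from the rest by Dixon's test at the 95% level. A nominal rate of 1 in 20 would give 3.3 groups. The same library is counted again for each member, so the tests are not independent and 3.3 is not a chance expectation for them. MCAO day 7 replicate C stood apart on the high side for 5 members, with 18.4 CPM of *Fcgr1*, 90.4 CPM of *Fcgr3*, 20.2 CPM of *Fcgr4*, 406 CPM of *Fcer1g* and 399 CPM of *Fcrls*. MCAO 12 h replicate E stood apart on the high side for *Fcgr3* (39.3 CPM), *Fcgr2b* (10.1 CPM) and *Fcer1g* (91.7 CPM), and MCAO 24 h replicate D for *Fcgr2b* (16.5 CPM). MCAO day 7 replicate C and MCAO 12 h replicate E were also the highest of their groups in summed pan-myeloid markers (1073 and 186 CPM).

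Among the shams, *Fcgr3* was low in sham 3 h replicate B (2.30 CPM), *Fcer1g* was low in sham 3 h replicate A (9.88 CPM) and *Fcgr1* was high in sham day 7 replicate B (3.73 CPM). *Fcgr4* was the other case, since in each sham group 1 library held the only reads. With the other libraries at 0, the test flags such a library whatever its value. These libraries were sham 3 h replicate A (0.395 CPM), sham 12 h replicate B (0.521 CPM), sham 24 h replicate D (0.524 CPM), sham day 3 replicate D (0.937 CPM) and sham day 7 replicate B (1.4 CPM), each from 1 to 3 reads.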

How the results depend on the processing

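All alternatives kept the direction of the 6 members in MCAO against sham at each time. The count on day 3 was 6 under all alternatives but the fit of only the groups compared (5) and the left-out libraries (5 to 6). The count on day 7 was 5 to 6 under the settings that kept all libraries and groups, 2 with only the groups compared, and 2 to 6 with 1 library left out. At 24 h 1 member was called without a filter and 2 with only the groups compared. Against control at 24 h, 1 member was called without a filter and 3 with only the groups compared. On day 3 against control the count was 3 with only the groups compared and 4 to 6 with 1 library left out. On day 7 against control it was 0 with only the groups compared, 2 without the 2 libraries that stand apart and 0 to 4 with 1 library left out. The changes of effect had 3 members called from 24 h to day 3 and 1 from day 3 to day 7 without the 2 libraries, and 0 to 1 from day 3 to day 7 with 1 library left out. With 2 groups in a fit the spread is estimated from those libraries alone, and the standard errors moved both ways. For *Fcrls* against sham, the standard error at 24 h was 0.45 in the main fit and 0.21 with only the groups compared. On day 7 it was 0.43 in the main fit and 0.56 with only the groups compared. For the lists, only the groups compared gave 6 of the ITAM signalling genes on day 3 in place of 11, 2 of the phosphatases in place of 4, 3 of the other adaptors and activating receptors in place of 5 and 1 ITIM gene in place of 2, and on day 7 1, 0, 0 and 0. With only the groups compared, 0 homeostatic microglia, border macrophage and monocyte genes were called on day 7.

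Values that changed sign were not called before or after the change. With spike-in scaling they were *Fcrls* against control at 12 h (-0.20), *Fcgr1* from 24 h to day 3 (-0.077) and *Fcer1g* from day 3 to day 7 (0.050). This scaling put the median of all genes between -0.33 and 0.30 over the 15 comparisons. The 18 higher and 4 lower calls over all genes at 3 h against sham became 9 and 5, and the 77 and 93 at 12 h against control became 38 and 185. With limma they were *Fcgr4* against control at 3 h (0.048) and *Fcgr2b* from day 3 to day 7 (-0.032), which was also -0.17 without the 2 libraries. With a pseudocount of 2 CPM the ratio of *Fcgr3* to *Fcgr2b* differed by 0.0051 at 12 h and 0.21 on day 3. With 1 library left out, the ranges that crossed 0 were, against control, *Fcgr1* at 3 h (-0.87 to 0.10), *Fcgr4* at 3 h (-0.88 to 1.33) and *Fcrls* at 12 h (-0.042 to 0.26), for all shams *Fcgr1* (-0.74 to 0.016) and *Fcgr3* (-0.015 to 0.33), and for the changes of effect *Fcgr2b* (-0.25 to 0.66) and *Fcgr3* (-0.43 to 0.19) from 3 h to 12 h, *Fcgr3* (-0.072 to 0.43) and *Fcgr4* (-1.0 to 2.24) from 12 h to 24 h, *Fcgr1* (-0.42 to 0.94) and *Fcgr4* (-1.10 to 2.83) from 24 h to day 3, and *Fcer1g* (-1.35 to 0.16), *Fcgr1* (-1.0 to 1.27) and *Fcgr4* (-3.83 to 1.17) from day 3 to day 7. For the ratios they were *Fcgr1* to *Fcgr2b* at 12 h (-0.21 to 0.48), *Fcgr3* to *Fcgr2b* on day 3 (-0.38 to 0.19) and *Fcgr4* to *Fcgr2b* at 3 h (-0.64 to 0.048). The cause was not tested.

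In 20 same-lettered pairs of MCAO and sham libraries, deviations from the group means correlated between -0.31 and 0.17, and 6 correlated best with their own letter, so the letters name libraries only. With the replicate letter as a block, 6 members were called on day 3 and 5 on day 7 against sham, 6 and 3 against control, and 0 in the other comparisons. The block took 1 call each from the border macrophage and ITIM lists on day 3 and from the monocyte list on day 7. *Fcgr4* at 3 h could not be fitted with only the groups compared for want of reads. Depth limits *Fcgr1*, *Fcgr2b* and *Fcgr4* most, since their shams held at most 16 reads per group.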
